A study of Mus musculus with 6 samples.

Results

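The miR-29 family of mouse comprises mmu-miR-29a, mmu-miR-29b and mmu-miR-29c, and its 3 members were taken by name from the 577 microRNA entries of a mouse microRNA array hybridised with oocyte RNA. A microRNA is a short RNA that guides the silencing machinery to messenger RNAs paired with its seed, the bases near its 5′ end. The members miR-29a and miR-29b were called detected on all 6 arrays, as were 56 of the 577 entries, and miR-29c was called detected on 1 array. The study profiled total RNA from pooled oocytes of C57BL/6 mice with one-colour arrays, in 3 groups of 2 arrays, to follow oocyte ageing and oocyte growth. Young large oocytes, titled young growing, were 60 to 80 µm in diameter and were taken from animals of 6 to 8 weeks. Aged large oocytes, titled aged growing, spanned that diameter range too, and their donors were 41 to 43 weeks old by the age label and the series text, or 42 to 44 weeks by the sample descriptions. Young small oocytes, titled young non-growing, were 20 to 50 µm wide and were taken from animals of 6 to 8 weeks, with a stage label of primordial follicle. Oocytes were pooled by diameter, and neither the number of oocytes nor the number of mice per pool is given in the sources used here. Duplicates are mentioned in the series text, but nothing says that they came from separate pools or mice, so the p-values cover array-to-array spread alone, and that spread may be technical.

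miR-29 is best known for repressing genes of the extracellular matrix, among them collagens and elastin, and it is abundant in fibroblasts and other mesenchymal cells. It also represses the de novo DNA methyltransferases Dnmt3a and Dnmt3b and the TET enzymes, which oxidise methylated cytosine. Growing mouse oocytes lay down maternal DNA methylation with Dnmt3a, whereas microRNA silencing as a whole is known to be weak in the grown mouse oocyte. The array measured the microRNAs only, so none of these targets was measured here.

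The mature sequences show what defines the family and how its members differ. They are printed from RefSeq (GRCm38.p6), where all 3 members matched an entry, with the seed, bases 2 to 8, in capitals.
mmu-miR-29a: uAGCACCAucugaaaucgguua
mmu-miR-29b: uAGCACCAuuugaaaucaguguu
mmu-miR-29c: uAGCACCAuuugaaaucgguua
All 3 members carry the seed AGCACCA, and they are the only 3 of the 1679 mature microRNAs in the table that do. They are identical over their first 9 bases. Counting from 1 at the 5′ end, miR-29c differs from miR-29a at 1 position, C10U. miR-29b differs from miR-29a by C10U, G18A, U21G and A22U and carries 1 extra base at its 3′ end. In human cells the last 6 bases of miR-29b, AGUGUU, are known to act as a nuclear import element, and 2 mature microRNAs of the table end in them. Whether the array probes of these near-identical members cross-hybridise was not tested.

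The members are cut from 4 hairpins in 2 pairs of neighbouring genes, printed here because they show which member each locus encodes. The 3p strand, which is the measured member, is in capitals.
Mir29a: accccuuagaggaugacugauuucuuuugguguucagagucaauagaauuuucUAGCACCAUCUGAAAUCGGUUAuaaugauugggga
Mir29b-1: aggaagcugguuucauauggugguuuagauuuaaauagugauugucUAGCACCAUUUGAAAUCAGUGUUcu
Mir29b-2: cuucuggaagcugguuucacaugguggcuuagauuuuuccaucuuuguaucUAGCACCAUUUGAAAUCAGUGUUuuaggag
Mir29c: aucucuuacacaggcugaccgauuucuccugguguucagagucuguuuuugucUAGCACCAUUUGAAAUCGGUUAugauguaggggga
On GRCm38.p6, Mir29a lies at chr6:31062660-31062747 and Mir29b-1 at chr6:31063023-31063093, both on the minus strand, with 275 bases between them and no overlapping gene in the annotation. Mir29b-2 lies at chr1:195037040-195037120 and Mir29c at chr1:195037547-195037634, both on the plus strand, with 426 bases between them, and both overlap the long non-coding RNA gene A330023F24Rik. The array's miR-29b entry cannot tell its 2 hairpins apart, since both give the same mature sequence, while miR-29a and miR-29c each have 1 hairpin.

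The arrays differed in brightness along the groups, and every level below has to be read against that. The factor that puts each array on a common scale (its 75th percentile over the 56 commonly detected entries, divided by the geometric mean of that percentile) reached 1.94 and 1.48 in young large oocytes. The aged large arrays had factors of 0.954 and 1.06, and the young small arrays 0.582 and 0.589. Between 57 and 102 entries were called detected per array, fewest in young small oocytes. Duplicate arrays correlated over microRNAs with r between 0.977 and 0.996. Of 11 strands from the cluster spanning miR-290 to miR-295, known from oocytes and early embryos, 8 were detected, with a summed scaled signal of 128.6 to 143.5 in young large, 151.0 in both aged large and 64.0 to 64.4 in young small oocytes. Fewer oocytes, fewer cells of another type in the pool and less RNA per oocyte cannot be told apart in such bulk samples.

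The raw signal of miR-29a was highest in young large oocytes. It was 19.9 and 16.9 in young large oocytes, 10.02 and 12.2 in aged large oocytes and 9.10 and 9.93 in young small oocytes, in arbitrary units of background-subtracted brightness. Both young large arrays lay above the other 4. The small oocytes lay lowest, but their 9.93 and the 10.02 of aged large oocytes are closer than the scanner errors. The scanner software gave errors of 1.59 to 2.29 to these signals, so that each exceeded its error by 5.49 to 8.72 times.

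The raw signal of miR-29b followed the same pattern. It was 35.9 and 27.8 in young large, 15.8 and 19.4 in aged large and 15.9 and 15.0 in young small oocytes. Again the young large arrays lay above the other 4, while aged large and young small arrays overlapped. The signals exceeded the scanner error by 7.29 to 9.87 times, and between 85% and 100% of the spots for miR-29b were kept as inliers on each array.

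miR-29c stood at the detection limit. Its raw signal was 10.9 and 7.28 in young large, 2.75 and 4.25 in aged large and 3.03 and 3.91 in young small oocytes, with scanner errors of 1.43 to 1.82. The young large arrays were again the brightest, but only the first of them, at 6.01 times its error, was called detected. The second reached 4.13 times its error without a call, and 3 other undetected entries on that array had a higher ratio, up to 5.04.

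**Figure D1:**
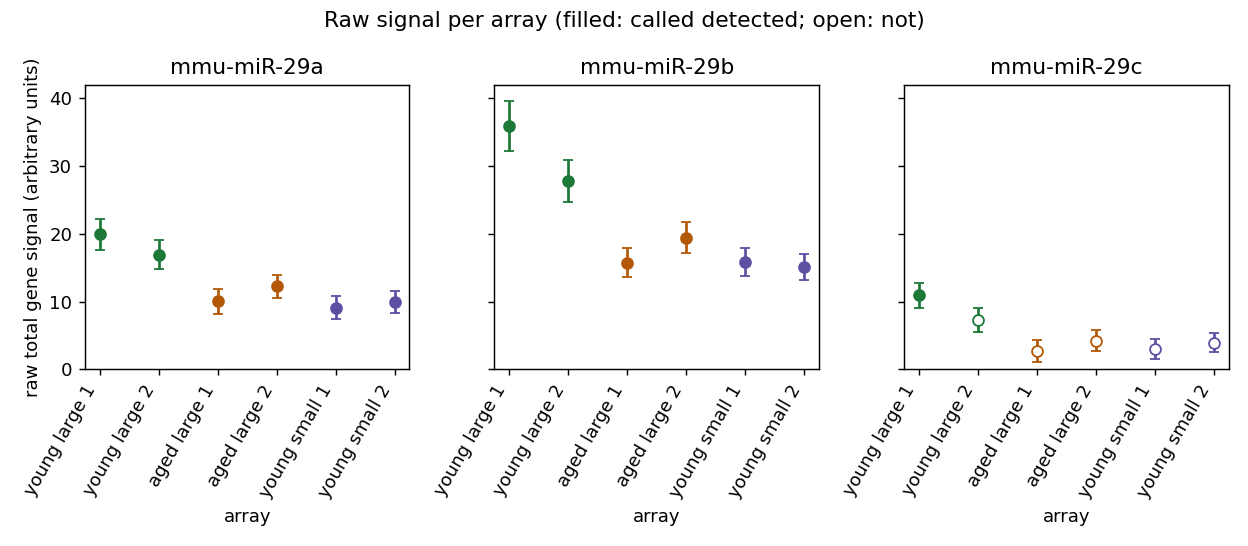
Raw total gene signal (arbitrary units, vertical axis) of miR-29a, miR-29b and miR-29c on each of the 6 arrays, with the scanner software's error as bars. Filled points were called detected and open points were not; all 3 members are brightest on the 2 young large arrays, and 1 of 6 points is filled for miR-29c.

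The passenger strands of the same hairpins, listed as miR-29a*, miR-29b* and miR-29c*, were not detected on any array. Their highest raw signal over the 6 arrays was 1.76.

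On the common scale the order of the groups changed, because the young small arrays were dimmest as a whole. The scaled signal of miR-29a was 10.3 and 11.4 in young large, 10.5 and 11.6 in aged large and 15.6 and 16.8 in young small oocytes. Its group means were 10.8 ± 0.794, 11.0 ± 0.746 and 16.2 ± 0.864 in that order (SD, n = 2). Young large and aged large overlapped, and both small arrays lay above all 4 large ones.

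The scaled signal of miR-29b was 18.5 and 18.8 in young large, 16.5 and 18.3 in aged large and 27.2 and 25.5 in young small oocytes. Its group means were 18.6 ± 0.179, 17.4 ± 1.28 and 26.4 ± 1.21 (SD, n = 2). Aged large was the lowest group without overlapping young large, by less than the SD of the aged arrays, and young small was again the highest.

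The scaled signal of miR-29c was 5.62 and 4.90 in young large, 2.88 and 4.01 in aged large and 5.19 and 6.64 in young small oocytes. Its means were 5.26 ± 0.507, 3.44 ± 0.798 and 5.91 ± 1.02 (SD, n = 2). Aged large was lowest, and young large and young small overlapped. Only 1 of these 6 values lay above 6.17, the floor below which values were given no order in the tests, and that value was not called detected.

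**Figure D2:**
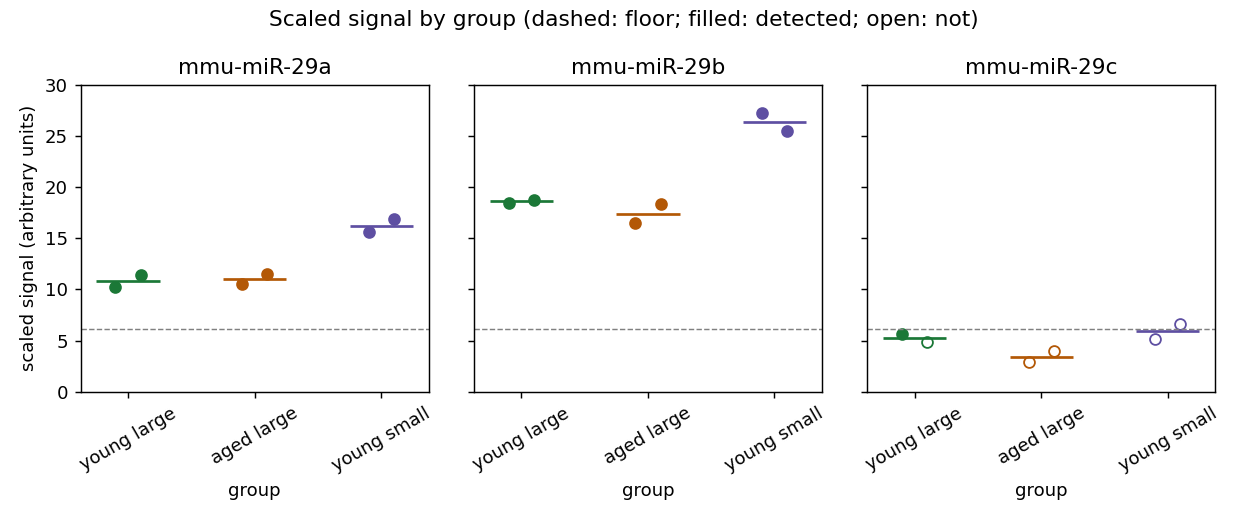
Scaled signal (arbitrary units) of the 3 members by group, with 1 point per array, the group mean as a line and the floor of 6.17 dashed. miR-29a and miR-29b are highest on the 2 young small arrays, and the miR-29c points lie around or under the floor.

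The first comparison, aged against young large oocytes, asked which microRNAs differ with maternal age at 1 oocyte size. Neither detected member passed the test. miR-29a had a log2 change, aged minus young, of 0.03 ± 0.09 (SE, n = 2 arrays per group; limma, adjusted p = 0.832), and miR-29b one of -0.10 ± 0.07 (limma, adjusted p = 0.322). Of the 81 microRNAs tested, 38, or 46.9%, passed at 0.05, against 0 of these 2 members, and at an unadjusted p under 0.05 the counts were 44 and 0. The arrays of miR-29b did not overlap, with aged below young, as was so for 28 of the 81 (34.6%); those of miR-29a overlapped. The median log2 change of all 81 was 0.06, and 37 of them had a lower change than miR-29a and 26 a lower one than miR-29b. Without scaling, the log2 change was -0.73 for miR-29a and -0.85 for miR-29b, beside a median of -0.65 over all microRNAs tested.

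miR-29c was not tested, because no group detected it on both arrays. It was detected on 1 of 2 young large arrays and on neither aged large array. All 4 scaled values lay under the floor of 6.17, so no fold is given. Before the floor the measured log2 difference was -0.63 (aged minus young), or -0.39 without the first aged large array, and with the floor it was 0.

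The second comparison, young large against young small oocytes, asked which microRNAs differ with oocyte growth, and it shares the young large arrays with the first. Relative to the microRNAs detected on every array, miR-29a and miR-29b were both lower in large oocytes. miR-29a had a log2 change, large minus small, of -0.59 ± 0.09 (SE; limma, adjusted p = 0.00605), so that its level was 1.50-fold higher in small oocytes. miR-29b had one of -0.50 ± 0.07 (SE; limma, adjusted p = 0.00501), or 1.42-fold higher in small oocytes. Both were among the 20 of 79 microRNAs tested (25.3%) that passed in this direction. All 20 were among the 56 entries detected on all arrays, as are both members. Of those 56, then, 20 passed as lower and 11 as higher. In both, each small array lay above each large array, which held for 36 of the 79 (45.6%). The median log2 change of all 79 was -0.07, and over the 56 detected on all arrays it was -0.27; 11 microRNAs had a lower change than miR-29a and 18 a lower one than miR-29b.

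These 2 decreases depended on how the arrays were scaled. Without scaling, both members were higher in large oocytes, by 0.95 for miR-29a and 1.03 for miR-29b on the log2 scale, and all 90 microRNAs that passed were higher too, with a median of 1.23 over all tested. Over 7 scalings, counting no scaling as 1 of them, the log2 change of miR-29a ran from -0.70 to 0.95, was negative in 6 and passed as lower in 3 and as higher in 1. That of miR-29b ran from -0.55 to 1.03, was negative in 5 and passed as lower in 3 and as higher in 1. The scalings rest on unlike references. At most 102 of 577 entries were detected per array, so the 75th percentile over all entries lay among mostly undetected entries. The total detected signal was set largely by miR-720, with scaled means of 19411 in young large and 26439 in young small oocytes. The next brightest entry tested, miR-709, had 463 and 780. Measured against the median of all microRNAs tested under the same scaling, both members were lower in large oocytes under 7 of 7 scalings. The gap was 0.28 to 0.70 for miR-29a and 0.20 to 0.55 for miR-29b on the log2 scale. The entries tested include some detected in large oocytes but not in small ones, such as miR-293. On the main scale the members differed from the median of all tested by -0.52 (miR-29a) and -0.43 (miR-29b). From the median of the entries detected on all arrays, as both members are, they differed by only -0.32 and -0.24. Except in quantile normalization, a scaling moves all microRNAs of an array alike. The gap can then change only through the floor and the entries tested, so the 7 are not separate checks of it. The brightness of the arrays moved with the groups, 2.90-fold between young large and young small on average, and its part in the decrease was not tested.

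In the ageing comparison the 7 scalings gave miR-29a log2 changes from -0.73 to 0.08, of which 2 passed as lower and 0 as higher. miR-29b was lower in aged oocytes under 7 of 7 scalings, with changes of -0.85 to -0.04, and passed under 3. Against the median of all tested it was lower by 0.15 to 0.30 under all 7, and miR-29a was below that median under 6 of 7. As in growth, the 7 scalings are not separate checks of these gaps. The young large arrays were 1.69-fold brighter on average than the aged large ones.

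**Figure D3:**
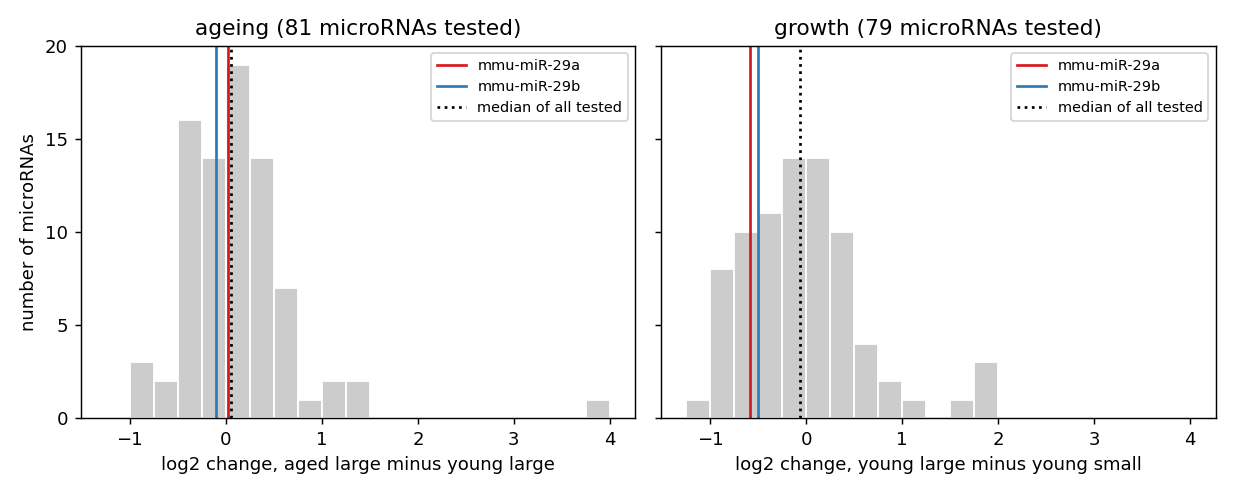
Histograms of the log2 change of all microRNAs tested for ageing (81) and growth (79), with miR-29a, miR-29b and the median of all tested as vertical lines. Both members stand close to the median in ageing and to the left of it in growth, at -0.59 and -0.50.

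**Figure D4:**
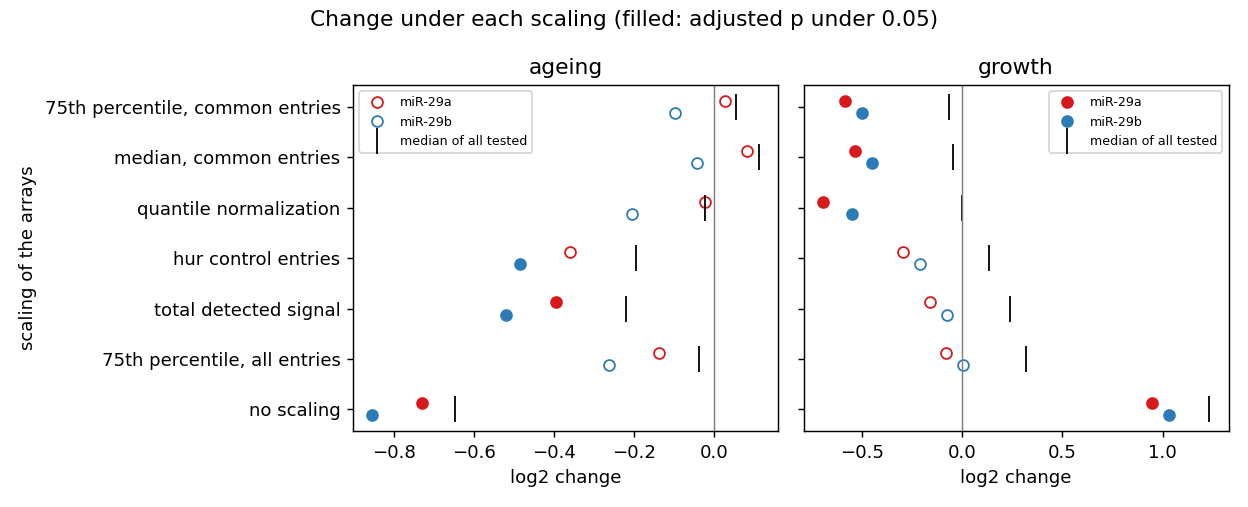
Log2 change of miR-29a and miR-29b (horizontal axis) under each of 7 scalings (vertical axis), filled where the adjusted p was under 0.05, with the median of all microRNAs tested as a tick. In growth the points move from -0.70 to 1.03 with the scaling and stay to the left of the tick of their own row.

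Single arrays also bore on the growth result. Leaving out the first young small array ended both calls (limma, adjusted p = 0.0659 for miR-29a and 0.118 for miR-29b), and the number of microRNAs that passed fell from 39 to 15. Leaving out any of the other 5 arrays changed neither call. Over all 6 fits that left out 1 array, the log2 change lay between -0.66 and -0.51 for miR-29a and between -0.57 and -0.42 for miR-29b. The scanner's own errors give a wider SE than the spread between arrays did, 0.21 for miR-29a and 0.17 for miR-29b in growth, which is 2.50 and 2.45 times the SE of limma.

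For miR-29c no fold is given for growth either, since neither small array detected it. Before the floor, the measured log2 difference, large minus small, was -0.16 on the common scale and 1.37 without scaling.

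The balance between the members was compared within arrays, where brightness cancels. The ratio says nothing of which member was more abundant, because the entries have different probes. The raw signal of miR-29b over that of miR-29a was 1.80 and 1.65 in young large, 1.57 and 1.59 in aged large and 1.74 and 1.51 in young small oocytes. On the log2 scale the ratio differed by -0.12 between aged and young large oocytes (exact two-sided permutation test, p = 0.333) and by 0.08 between large and small oocytes (exact two-sided permutation test, p = 0.667). With 2 arrays a group this test cannot go below 0.333. The scanner errors of the log2 ratios were 0.22 to 0.33, larger than both differences.

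**Figure D5:**
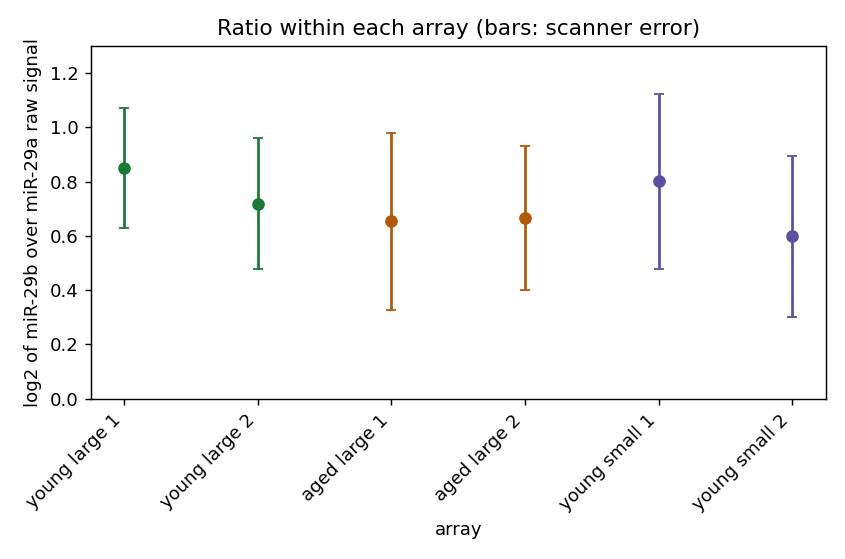
Log2 of the raw signal of miR-29b over miR-29a on each of the 6 arrays, with bars for the error carried over from the scanner software's errors. The values run from 0.60 to 0.85 and the bars of all arrays overlap.

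The ratio of miR-29c to miR-29a ran from 0.274 to 0.548 and was highest on the 2 young large arrays, at 0.548 and 0.431. As 5 of its 6 values rest on an undetected miR-29c, it was not tested.

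The microRNAs with the pattern most like the family over the 6 arrays were found by Euclidean distance between log2 scaled signals, each centred on its own mean, among the 55 other entries detected on all arrays. The nearest to miR-29a was miR-29b and the nearest to miR-29b was miR-29a, at a distance of 0.213. The median over the 55 was 0.681 for miR-29a and 0.727 for miR-29b. Whether cross-hybridisation between these near-identical members bears on their likeness was not tested. Next came miR-291b-5p (0.305) and miR-26b (0.352) for miR-29a, and miR-26b (0.222) and miR-93 (0.278) for miR-29b. Their sequences are shown with the seed in capitals, which none of them shares with miR-29.
mmu-miR-26b: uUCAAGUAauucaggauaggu
mmu-miR-93: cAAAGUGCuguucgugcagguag
mmu-miR-291b-5p: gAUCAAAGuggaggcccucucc
miR-26b, of the miR-26 family known for targeting the Polycomb methyltransferase gene Ezh2, had scaled signals of 12.01 and 11.8 in young large, 9.45 and 10.2 in aged large and 17.0 and 16.8 in young small oocytes. Like the 2 members it was highest in small oocytes, with a growth log2 change of -0.50 (limma, adjusted p = 0.00244). Unlike them it passed in ageing, at -0.28 (limma, adjusted p = 0.0152). miR-93, of the miR-106b cluster, had a growth change of -0.69 and an ageing change of -0.15 (limma, adjusted p = 0.00134 and 0.0972). miR-291b-5p, a strand from the miR-290 to miR-295 cluster, had changes of -0.85 and 0.22 (limma, adjusted p = 0.00134 and 0.0497), with the first young large array, at 3.73, under the floor. The growth decreases of these 3 also turned without scaling, to 1.03 for miR-26b, 0.84 for miR-93 and 0.32 for miR-291b-5p.

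Other microRNAs reported to act on DNA methylation enzymes or their regulators went in both directions in growth. Of 14 listed, 9 were tested in both comparisons. In growth 5 of the 9 passed as higher in large oocytes, beside 24.1% of all 79 microRNAs tested, and 1, miR-26b, passed as lower, like miR-29a and miR-29b. The median was 0.59, the change of miR-293 itself, beside -0.07 for all tested. The 5 came from a single cluster and were miR-291a-3p, miR-292-3p, miR-293, miR-294 and miR-295. Of these, miR-291a-3p and miR-293 were named after their values were seen. The count of 5 and the median therefore rest in part on entries picked from these data. miR-293 was detected on 4 arrays, and its young small values of 5.03 and 3.50 lay under the floor. miR-292-3p, for example, had a scaled signal of 38.4 and 41.5 in young large against 10.7 and 13.0 in young small oocytes, and it was higher in large oocytes under 7 of 7 scalings. In ageing 4 of the 9 passed as lower, namely miR-148a (-0.43), miR-22 (-0.37), miR-26a (-0.36) and miR-26b (-0.28), and 1 as higher, miR-293 (0.27). Over all 81 tested, 22.2% passed as lower and 24.7% as higher. The median was -0.30, the change of miR-291a-3p, which did not pass, beside 0.06 for all tested. Those 4 changes were negative under 7 of 7 scalings, whereas that of miR-293 was positive under 4.

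Of 14 other microRNAs reported to act on extracellular matrix and fibrosis genes, 8 were detected on at least 1 array and 6 were tested. In ageing 3 of the 6 passed as lower and 0 as higher, beside 22.2% and 24.7% of all tested, with a median of -0.37 beside 0.06. The 3 that passed were miR-141 (-0.81), of the miR-200 family that holds back epithelial to mesenchymal transition, and miR-19a (-0.62) and miR-19b (-0.55). The last 2 are of the miR-17 to miR-92 cluster, and all 3 were negative under 7 of 7 scalings. At an unadjusted p under 0.05 4 of the 6 were lower and 0 higher. In growth 2 of the 6 passed as higher, miR-30c (0.37) and miR-200c (0.26), again under 7 of 7 scalings, and 0 as lower, with a median of 0.16 beside -0.07. The shares over all tested were 24.1% higher and 25.3% lower. At an unadjusted p under 0.05 3 were higher and 1 lower. The 2 comparisons share the young large arrays, so the lists' values in them are not independent. Nor are the 7 scalings separate checks of either list.

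Cells other than oocytes were looked for through their microRNAs, since miR-29 is abundant in fibroblasts. Of 5 fibroblast, stromal and smooth muscle entries on the array (miR-143, miR-145, miR-199a-5p, miR-199b and miR-214), 0 were detected, their highest raw signal was 1.93 and their summed scaled signal was below 0 on all 6 arrays. Of 2 endothelial entries 0 were detected, with a highest raw signal of 1.18. Of 5 granulosa cell entries 2 were detected, miR-21 and miR-212, and the summed scaled signal was 16.9 to 18.6 in young large, 18.0 to 24.3 in aged large and 11.7 to 16.0 in young small oocytes. Of 6 blood cell entries 1, miR-223, was detected, and the sum was 24.3 to 24.9 in young large, 48.7 to 54.7 in aged large and 6.65 to 8.58 in young small oocytes. Both of these sums were lowest in the small oocytes. The blood cell sum followed its 1 detected entry, miR-223, whose mean scaled signal was 24.3 (young large), 52.4 (aged large) and 6.96 (young small). The granulosa entries did not move together. miR-21 had scaled signals of 10.7 and 11.2 in young large, 10.1 and 11.4 in aged large and 13.0 and 11.2 in young small oocytes. miR-212 had 8.58 and 7.71, 15.6 and 7.88, and 5.76 and 4.41 in that order. The sums also hold undetected entries, some below 0. The part of these other cells in the results was not tested.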

How the data were processed

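The submitters' processing notes name Agilent Feature Extraction 9.5 as the image software. The authors deposited 1 scanner file per array, which gives, per the file headers, a linear, background-subtracted total gene signal intensity per microRNA, its error, a detection call and the fraction of spots kept as inliers. The deposited series table repeats these intensities with values under 10 set to 0. Between 42.3% and 56.0% of entries per array were at or below 0.

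Of the entries, 577 were microRNAs, and 23 control entries were left out. Signals were divided by each array's 75th percentile over the 56 entries detected on all arrays, floored at 6.17 and put on the log2 scale, which shrinks differences near the floor. Testing required detection on 2 of 2 arrays in either compared group and a value above the floor on at least 1 array. Group means were fitted to all 6 arrays (3 residual degrees of freedom) in R 4.3.3 with limma 3.58.1, by lmFit followed by eBayes. Tests were two-sided, adjusted over all microRNAs tested by the Benjamini-Hochberg method at 0.05, and checked on simulated data. The number of arrays limits the precision.

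The members and lists were chosen with earlier results of these data known. Named microRNAs are the members, the 3 nearest patterns to each member detected on all arrays, and up to 4 members per list with the smallest unadjusted p. Mean ± SD values are of scaled signals before the floor. Alternatives covered 6 other scalings, the floor, the detection filter, the series table, the prior, the arrays fitted, blocks and left-out arrays. Figures were drawn with matplotlib 3.10.9.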

Additional observations from a re-analysis of the deposited data

How the results depend on the processing

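The direction of the growth result depended on scaling more than on any other choice tried. Without scaling, the log2 growth changes were 0.95 for miR-29a, 1.03 for miR-29b and 1.37 for miR-29c, and the ageing changes -0.73, -0.85 and -1.38. Scaling by the total detected signal gave -0.16, -0.0789 and 0.26 in growth and -0.39, -0.52 and -1.05 in ageing. Scaling by hur control entries gave -0.30, -0.21 and 0.13 in growth and -0.36, -0.48 and -1.01 in ageing. The 75th percentile over all entries gave -0.0838, 0.00055 and 0.34 in growth and -0.14 for miR-29a in ageing, and quantile normalization gave miR-29a -0.0217 in ageing. The series table gave miR-29b -0.16 in growth, which ended its call (limma, adjusted p = 0.118), and could not give miR-29a, which was at the floor on every array there. With no filter on detection, miR-29c, at the floor in both groups, changed by 0 in ageing.

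The number of microRNAs past the threshold (38 in ageing and 39 in growth) was 62 and 90 without scaling, 10 and 23 with the 75th percentile over all entries, 25 in ageing with only entries detected on all arrays, and 23 in growth with the series table. The numbers higher and lower, 20 and 18 in ageing, became 5 and 57 without scaling, 6 and 31 by total signal, 5 and 5 by the percentile over all entries, 25 and 14 by the median of common entries, 6 and 28 by hur entries, and 9 and 18 by quantiles. In growth 19 and 20 became 90 and 0, 29 and 4, 23 and 0, 19 and 20, 25 and 5, and 22 and 13, in the same order. Leaving out each array in turn gave 23 to 34 calls in ageing and 15 to 39 in growth. Without the first young small array the counts were 23 and 15. In those fits the ageing change of miR-29a ran from -0.0481 to 0.10, and the growth changes from -0.66 to -0.51 for miR-29a and from -0.57 to -0.42 for miR-29b. A group left with 1 array was assumed to vary like the others. Except where a setting's construction shows it, the cause of these shifts was not tested.

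The replicate block, which takes the numbers in the titles as pairs, left 29 calls in ageing and 34 in growth, with limma adjusted p = 0.00716 for miR-29a and 0.0194 for miR-29b in growth, and changed no member's call. Deviations of same-numbered arrays correlated with r of 0.15, -0.16 and 0.03 over 56 microRNAs. With so few arrays per group, these values cannot show whether same-numbered arrays were processed together, which was not tested. A crossed block, chosen after seeing the data, left 28 and 36 calls. Keeping entries at the floor on all arrays left 29 and 35. Over all alternatives the adjusted p in growth ran from 3.15e-05 to 0.791 for miR-29a and from 6.44e-06 to 1 for miR-29b. In ageing it ran from 0.00212 to 0.994 and from 0.000334 to 0.776. Dim signals, at most 9.87 times the scanner error for any member, limit all of these values.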
